A study of Mus musculus with 12 samples.

Results

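Lysosomal enzymes and membrane proteins were followed in mouse liver through 30 genes, taken by gene name from the 54532 genes counted in each library. Of these, 6 encode lysosomal membrane proteins, 11 proteases, 7 glycosidases and 4 proteins that handle lipids, and the remaining 2 are the granulin precursor gene *Grn* and the transcription factor gene *Tfeb*. All 30 were found, each as 1 gene, and all had enough counts to be tested in every comparison. *Ctss*, *Ctsk* and *Laptm5* were treated as macrophage-enriched and the other 27 as ubiquitous.

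The livers came from male PPARγ flox/flox mice injected at 8 weeks of age with an adeno-associated virus. In the group labelled PPARγ-KO the virus was AAV8-TBG-Cre, which drives Cre recombinase from the hepatocyte-specific TBG promoter, and in the group labelled WT it was AAV8-TBG-eGFP. WT animals therefore carried the floxed alleles and an AAV8 vector too, and PPARγ was left intact by design in all cells but hepatocytes. Every mouse ate fast-food diet (FFD), rich in fat, cholesterol and sucrose and given with fructose and glucose in the water, for 2 or 5 months. The 12 libraries made 4 groups of 3, and no chow-fed liver was among them.

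Lysosomes are acidic organelles in which soluble hydrolases break down proteins, glycans and lipids delivered by endocytosis, phagocytosis and autophagy. Heavily glycosylated membrane proteins such as LAMP1 and LAMP2 line them, a proton pump acidifies them, and channels and transporters return the products to the cytosol. The transcription factor TFEB turns on many lysosomal genes by binding a short E-box-like element in their promoters. In liver both hepatocytes and macrophages are rich in lysosomes. Macrophages, among them the resident Kupffer cells, also make enzymes and membrane proteins that hepatocytes make little of, with cathepsin S as a standard example.

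Promoter sequences from RefSeq (build GRCm38.p6, the assembly that mm10 is made from) were found for 27 of the 30 members, in windows of 250 bases before to 50 after each start site. *Asah1*, *Ctsb* and *Ctsh* had none in the table used. The E-box core CACGTG, the centre of the element that TFEB binds, was searched on both strands. It lay in the window of 9 of the 27 genes (33.3%), namely *Ctsa*, *Ctsd*, *Ctsl*, *Gaa*, *Gla*, *Glb1*, *Lamp1*, *Lgmn* and *Mcoln1*, and in a window of the same length of 8.09% of the 27025 genes in the promoter table. The longer form TCACGTGA, every copy of which holds the core, lay in 4 of the 27 (14.8%), *Ctsa*, *Ctsd*, *Gla* and *Mcoln1*, against 1.12% of all genes. The same letters with a G before and a C after them were found in 0 of the 27, against 0.37% of all genes. These letters are shown for the gene with the most copies and for the 4 with the longer form. The runs of *Mcoln1* and *Ctsd* leave out a further copy of CACGTG, at -71 and -245 from the start site. That of *Ctsa* also leaves out a further copy, which lies just past the start site. Capitals mark CACGTG, and each run is given 5′ to 3′ on the strand of its gene.

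*Lamp1* (chr8:13159086-13159160, + strand, ending 1 base before the start site, 4 copies): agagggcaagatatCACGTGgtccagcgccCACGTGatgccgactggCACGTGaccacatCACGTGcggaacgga
*Gla* (chrX:134601176-134601255, - strand, 2 copies): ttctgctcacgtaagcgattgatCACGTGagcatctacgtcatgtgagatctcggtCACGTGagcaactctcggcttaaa
*Mcoln1* (chr8:3500462-3500491, + strand): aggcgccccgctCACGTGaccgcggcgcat
*Ctsd* (chr7:142387908-142387937, - strand): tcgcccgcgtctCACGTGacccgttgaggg
*Ctsa* (chr2:164833743-164833772, + strand): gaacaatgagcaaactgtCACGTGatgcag

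A second set of letters was searched because of the macrophage-enriched members. GAGGAAGT, the kind of element bound by the myeloid factor PU.1, lay on either strand in the windows of *Ctsc*, *Ctss*, *Gla* and *Gusb*, 4 of the 27 genes (14.8%), against 3.69% of all genes. The 2 proteases of that group are shown, with the reverse complement of GAGGAAGT in capitals. The PPAR-type direct repeat, AGGTCA followed after 1 base by AGGTCA, was found in 0 of the 27 and in 0.0481% of all genes. A match of letters is a description of the window and not a binding site.

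*Ctsc* (chr7:88277895-88277984, + strand, 190 to 101 bases before the start site): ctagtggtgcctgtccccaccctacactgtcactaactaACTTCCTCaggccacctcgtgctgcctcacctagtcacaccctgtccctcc
*Ctss* (chr3:95526764-95526793, + strand, across the start site): tgaaaccgaaatgaaagttcACTTCCTCat

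The 12 libraries held 16367775 to 27452284 counts. *Pparg* itself was not lower in the libraries labelled PPARγ-KO, in CPM, the count scaled by library size and composition. At 2 months the WT libraries held 38.8, 41.4 and 37.6 CPM and the others 50.4, 66.5 and 52.0 CPM. The 5-month values were 36.9, 41.4 and 37.1 CPM for WT and 86.5, 92.9 and 75.0 CPM for the others. These are counts over the whole gene, in which the floxed exons were not measured apart, so the genotype below is the one on the labels. WT replicate 1 at 2 months stood apart from its group: chi-square per gene, near 1 where counting alone separates replicates, was 31.7 and 27.6 against the other WT libraries, which differed from each other by 10.3. At 5 months WT replicate 1 was at 13.1 and 14.6 against the other WT libraries, with 2.44 between those. Within PPARγ-KO the values were 14.0 to 17.5 at 2 months and 9.40 to 16.2 at 5 months. WT replicates 2 and 3 of 5 months were thus the closest pair, and the distance of replicate 1 was within the PPARγ-KO range. The counts of members called are given without WT replicate 1 of either time. Hepatocyte markers summed to 58874 to 90404 CPM in every library, as liver should. It is not stated whether each library was 1 mouse, and p-values then measure the spread between libraries, which may be technical in part.

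The members together took 0.521% to 0.826% of all counts. Their summed level was 5475, 5680 and 5544 CPM in WT and 5181, 5278 and 5490 CPM in PPARγ-KO at 2 months. At 5 months it was 7861, 8116 and 8162 CPM in WT and 6938, 7127 and 6919 CPM in PPARγ-KO. The genotypes overlapped at 2 months and did not at 5 months, and within each genotype every 5-month library lay above every 2-month library. Per kilobase of the gene length in the files, the highest levels in WT liver at 5 months were those of *Psap* (401 CPM per kb), precursor of the saposins that present sphingolipids to their hydrolases, and *Lamp1* (351 CPM per kb). *Ctsz*, *Ctsb* and *Ctsd* followed at 217, 195 and 194 CPM per kb. *Gla*, *Tfeb* and *Ctsk* were the lowest at 3.49, 1.95 and 1.65 CPM per kb. *Ctss* stood at 38.5 CPM per kb, rank 11 of 30, in WT liver at 2 months and at 130.3 CPM per kb, rank 7, at 5 months.

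**Figure D1:**
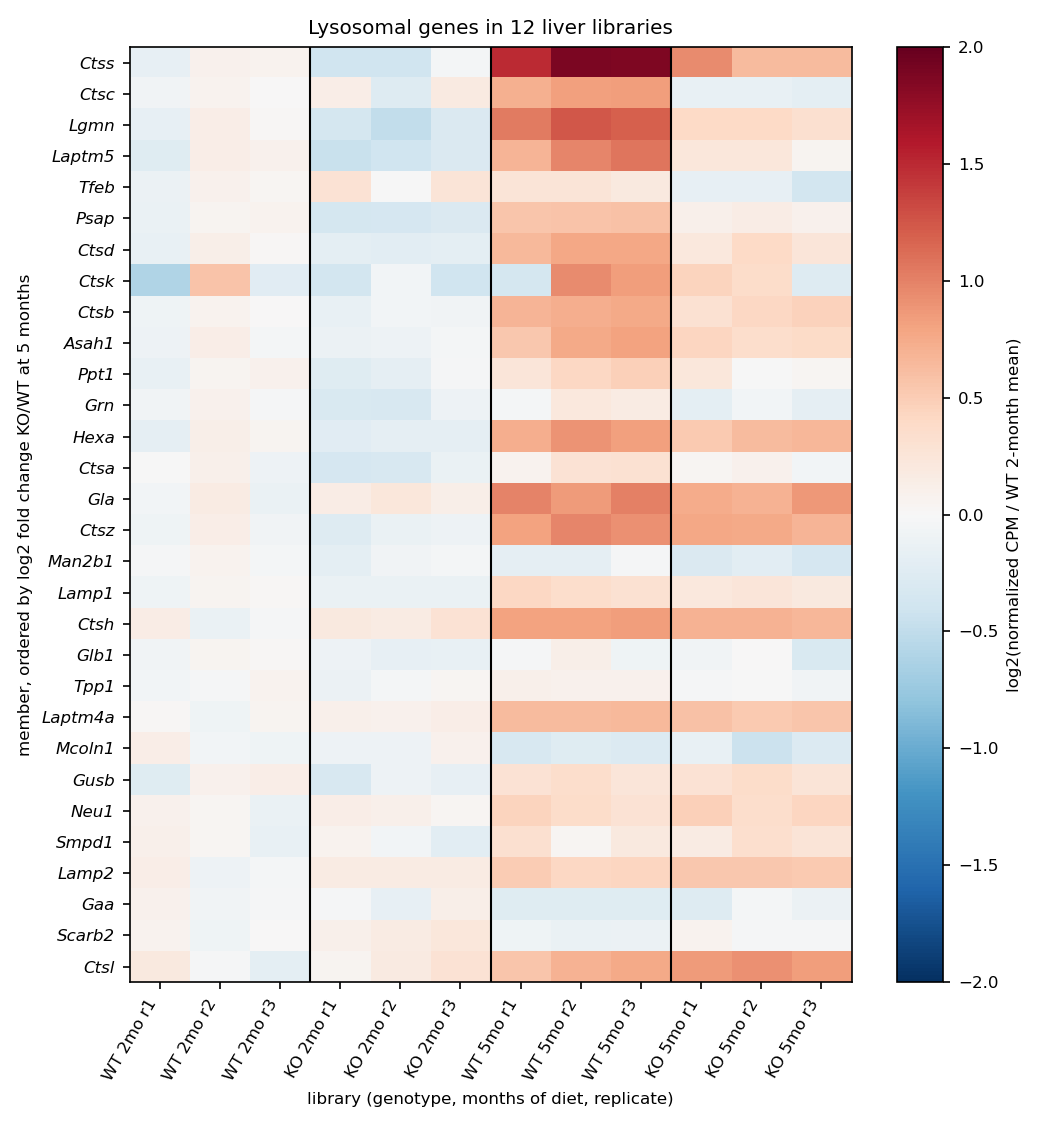
Level of each of the 30 members (rows, ordered by the PPARγ-KO/WT fold change at 5 months) in each of the 12 libraries (columns), as log2 of normalized CPM over the mean of WT at 2 months. The WT columns at 5 months are the most strongly red for the upper rows, and *Ctss*, *Ctsc*, *Lgmn* and *Laptm5* are paler in the PPARγ-KO columns beside them.

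At 2 months no member passed the test between PPARγ-KO and WT in the main fit, on group alone in the 6 libraries of that time. With the replicate number as a block, *Lgmn* and *Laptm5* passed. The members with the smallest p on group alone were *Lgmn*, *Psap* and *Laptm5*, all lower in the PPARγ-KO libraries. Genes were called at an adjusted p below 0.05 by edgeR's quasi-likelihood test, adjusted over all genes tested. Of the 30 members, 0 were called higher and 0 lower, where 1.78% of the 14573 genes tested were called higher and 1.78% lower. At an unadjusted p below 0.05 there were 1 higher member, *Ctsh*, and 8 lower, against 9.35% and 9.52% of all genes. DESeq2 called 0 higher and 2 lower, *Lgmn* and *Psap*, where it called 3.40% of all genes higher and 3.38% lower. With no filter, or with all 12 libraries in one fit, edgeR called *Laptm5*, *Lgmn* and *Psap* lower, where 2.87% and 3.93% of all genes were. With library size alone it called *Lgmn* and *Psap* lower, where 2.39% of all genes were. In the main fit the median log2 fold change of the members was -0.09, against -0.00 for all genes tested.

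*Lgmn*, which encodes the asparaginyl endopeptidase legumain that processes cathepsins, was at 80.8, 99.3 and 92.6 CPM in WT and 71.5, 64.9 and 74.7 CPM in PPARγ-KO. The groups did not overlap, the log2 fold change was -0.37 ± 0.09 (SE, n = 3 libraries a group, as throughout), and edgeR's adjusted p was 0.0565. *Laptm5*, a lysosomal membrane protein of blood cells, was at 34.9, 45 and 43.6 CPM in WT and 30.3, 31.2 and 33.6 CPM in PPARγ-KO. Every PPARγ-KO value was again below every WT value, with a log2 fold change of -0.38 ± 0.10 and an adjusted p of 0.0789. *Psap* gave 674, 776 and 780 CPM against 580, 590 and 608 CPM, also without overlap (-0.33 ± 0.09, adjusted p = 0.0701). Libraries with the same replicate number deviated together at 2 months, though no label states that they are pairs. With the replicate number as a block *Lgmn* and *Laptm5* passed edgeR's test, at adjusted p = 0.0469 and 0.0445. Of all genes 2.65% were called lower under the block and 2.96% higher. No other member changed its call under the block.

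WT replicate 1 decided much of this comparison. Without it 6 members were called lower, *Ctsd*, *Gusb*, *Hexa*, *Laptm5*, *Lgmn* and *Psap*, and 2 higher, *Ctsh* and *Lamp2*, where 5.25% of all genes were called lower and 5.31% higher. The fold change of *Laptm5* was then -0.48 (adjusted p = 0.00393) and that of *Lgmn* -0.45 (adjusted p = 0.00472) on the log2 scale. Of the other macrophage-enriched members, *Ctss* gave 46.5, 55.6 and 54.9 CPM in WT and 39.7, 39.8 and 51.1 CPM in PPARγ-KO, which overlapped (-0.26 ± 0.11, adjusted p = 0.251). *Ctsk*, the collagen-degrading cathepsin best known from osteoclasts, stayed between 1.09 and 2.47 CPM, and its fold change changed sign when WT replicate 2 was left out (-0.27 ± 0.34, adjusted p = 0.724). *Tfeb* was at 8.62, 9.93 and 9.59 CPM in WT and 11.5, 9.29 and 11.2 CPM in PPARγ-KO, again with overlap (0.18 ± 0.13, adjusted p = 0.506). The values of 4 members lay wholly above WT and those of 9 wholly below, against 12.1% and 12.0% of all genes.

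**Figure D2:**
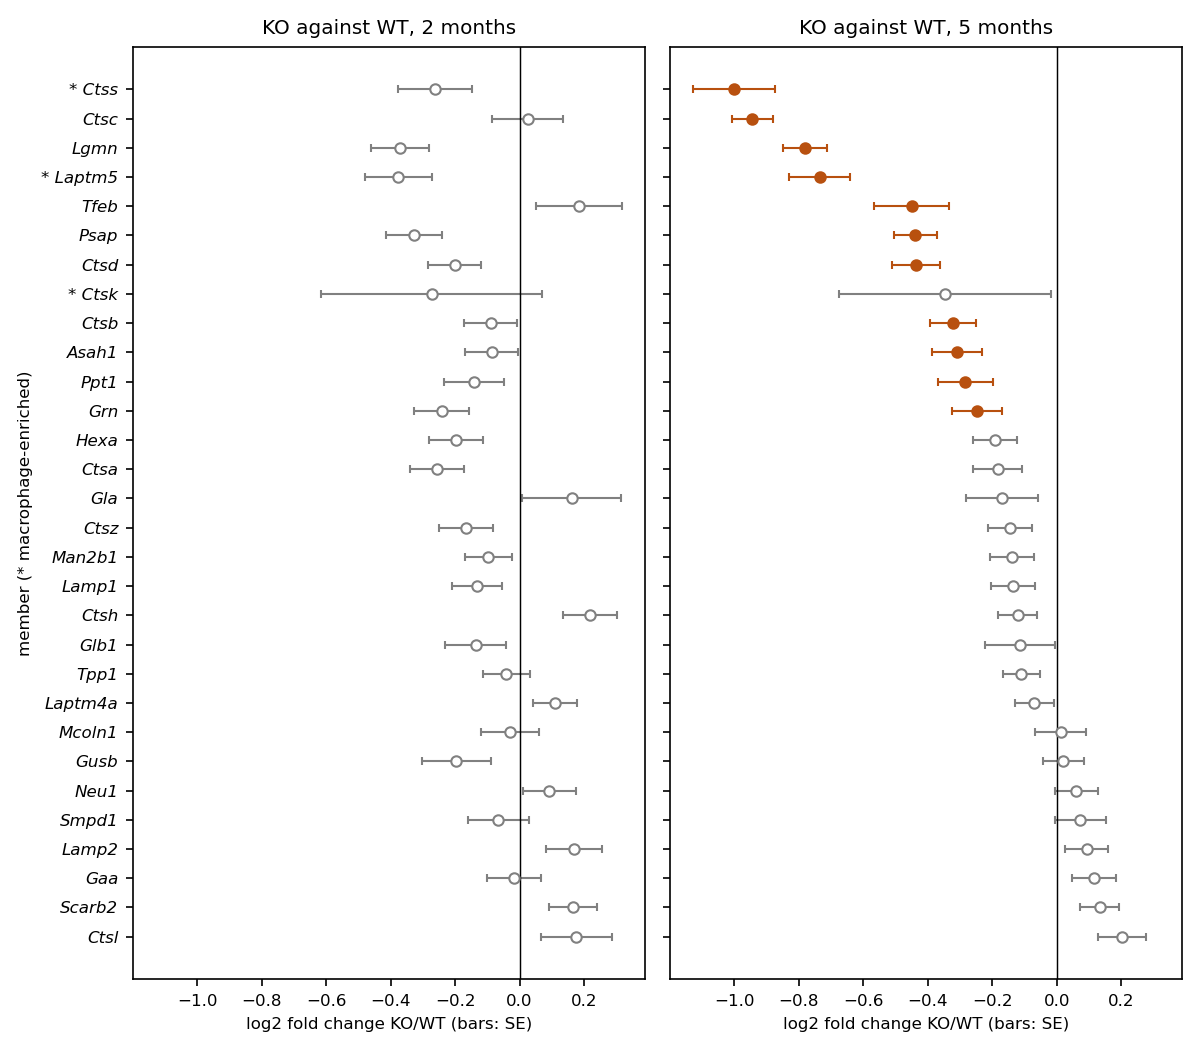
Log2 fold change PPARγ-KO/WT of each member at 2 months (left) and 5 months (right), with its standard error as a bar. Filled points have an adjusted p below 0.05 by edgeR, fitted on group alone. There are 0 at 2 months and 11 at 5 months, all of them to the left of 0.

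At 5 months 11 of the 30 members were lower in PPARγ-KO and 0 were higher, where 9.51% of the 14138 genes tested were called lower and 8.90% higher. *Ctss* and *Ctsc* were at about 0.50 and 0.52 of the WT mean, and *Lgmn* and *Laptm5* at 0.58 and 0.60. The calls took in 5 of 11 proteases, 3 of 4 lipid-handling proteins, both regulators and 1 of 6 membrane proteins, *Laptm5*. None of the 7 glycosidases was called by edgeR or DESeq2, and 1 of them, *Hexa*, had an unadjusted p below 0.05. Over all members 13 were lower and 2 higher at an unadjusted p below 0.05, against 15.8% and 14.9% of all genes. Among the ubiquitous members 9 of 27 were called lower, with a median log2 fold change of -0.14. Among the macrophage-enriched, 2 of 3 were, with a median of -0.73, while the median of all genes was -0.01. Bulk tissue does not tell fewer macrophages from less of these RNAs in macrophages, hepatocytes or other cells.

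Among the proteases, *Ctss*, the cathepsin that trims the MHC class II invariant chain in antigen-presenting cells, was at 147, 193 and 191 CPM in WT and 101, 81.1 and 81.2 CPM in PPARγ-KO. The lowest WT library was above the highest PPARγ-KO library, and the log2 fold change was -1.0 ± 0.13 (adjusted p = 9.57e-04). *Ctsc*, the dipeptidyl peptidase that activates the serine proteases of immune cells, had 129, 139 and 142 CPM in WT and 71.6, 71.5 and 68.9 CPM in PPARγ-KO. The groups were far apart, and it had the smallest p of the members (-0.94 ± 0.06, adjusted p = 1.56e-06).

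*Lgmn* was at 187, 215 and 208 CPM in WT and 119, 120 and 113 CPM in PPARγ-KO (-0.78 ± 0.07, adjusted p = 9.48e-06). *Ctsd*, the main aspartic protease of lysosomes, was at 431, 469 and 469 CPM against 319, 362 and 323 CPM (-0.44 ± 0.07, adjusted p = 0.00121). *Ctsb*, an abundant cysteine protease, was at 1150, 1185 and 1213 CPM against 887, 954 and 978 CPM (-0.32 ± 0.07, adjusted p = 0.00796). None of these 3 overlapped between the genotypes. The proteases not called were *Ctsa*, *Ctsh*, *Ctsk*, *Ctsl*, *Ctsz* and *Tpp1*, with log2 fold changes from -0.35 to 0.20. *Ctsl*, another broad cysteine protease, lay the other way, with 718, 754 and 710 CPM in PPARγ-KO all above the 586, 648 and 675 CPM of WT (0.20 ± 0.08, adjusted p = 0.0809), and DESeq2 called it higher.

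Of the macrophage-enriched members besides *Ctss*, *Laptm5* was at 66.3, 80.7 and 86.0 CPM in WT and 48.3, 47.9 and 42.8 CPM in PPARγ-KO (-0.73 ± 0.09, adjusted p = 2.64e-04). *Ctsk* was at 1.3, 3.21 and 2.97 CPM against 2.26, 2.15 and 1.39 CPM. The *Ctsk* groups overlapped, and at this depth no difference was detectable (-0.35 ± 0.33, adjusted p = 0.528).

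None of the 5 other membrane proteins was called. *Lamp1* was at 976, 936 and 902 CPM in WT and 844, 863 and 838 CPM in PPARγ-KO, without overlap but short of the threshold (-0.13 ± 0.07, adjusted p = 0.207). *Lamp2* and *Scarb2*, which encodes the receptor that carries glucocerebrosidase to lysosomes, lay above WT in all 3 PPARγ-KO libraries, by 0.09 and 0.13 on the log2 scale (adjusted p = 0.395 and 0.157). *Laptm4a* and the calcium channel gene *Mcoln1* differed by -0.07 and 0.01, with adjusted p = 0.483 and 0.937, and the sign of *Mcoln1* changed with single libraries left out.

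Among the lipid-handling proteins, *Psap* was at 1094, 1098 and 1110 CPM in WT and 801, 827 and 791 CPM in PPARγ-KO (-0.44 ± 0.07, adjusted p = 6.34e-04). The acid ceramidase gene *Asah1* was at 57.2, 66.6 and 68.7 CPM against 53.1, 50.2 and 51.1 CPM (-0.31 ± 0.08, adjusted p = 0.0138). *Ppt1*, which encodes the thioesterase that removes palmitate from proteins, was at 43.1, 48.5 and 51.1 CPM against 42.7, 36.3 and 37.4 CPM (-0.28 ± 0.08, adjusted p = 0.0336). In *Ppt1* the highest PPARγ-KO library came within 1 CPM of the lowest WT library, and DESeq2 did not call it. The acid sphingomyelinase gene *Smpd1* overlapped between the genotypes (0.07 ± 0.08, adjusted p = 0.592).

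Both regulators were lower. *Tfeb* gave 11.2, 11.2 and 10.8 CPM in WT and 8.40, 8.35 and 7.26 CPM in PPARγ-KO (-0.45 ± 0.12, adjusted p = 0.0168). *Grn*, whose product is cut into granulins inside lysosomes, gave 211, 251 and 243 CPM against 190, 208 and 192 CPM (-0.25 ± 0.08, adjusted p = 0.0406). The calls of *Asah1*, *Tfeb*, *Ppt1* and *Grn* rested on single libraries: without WT replicate 2, WT replicate 3 or PPARγ-KO replicate 3 none of the 4 passed and the count of lower members fell from 11 to 7, with 5.72% to 6.05% of all genes called lower and adjusted p rising as far as 0.0842, 0.0699, 0.161 and 0.186. The other 7 calls were kept with any 1 library left out. Without WT replicate 1, 14 members were called lower, with *Ctsa*, *Ctsz* and *Hexa* added, where 10.9% of all genes were. DESeq2 called 10 members lower and 1 higher, where it called 8.56% and 8.07% of all genes. The values of 18 members lay wholly below WT and those of 3 wholly above, against 19.0% and 15.9% of all genes.

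**Figure D3:**
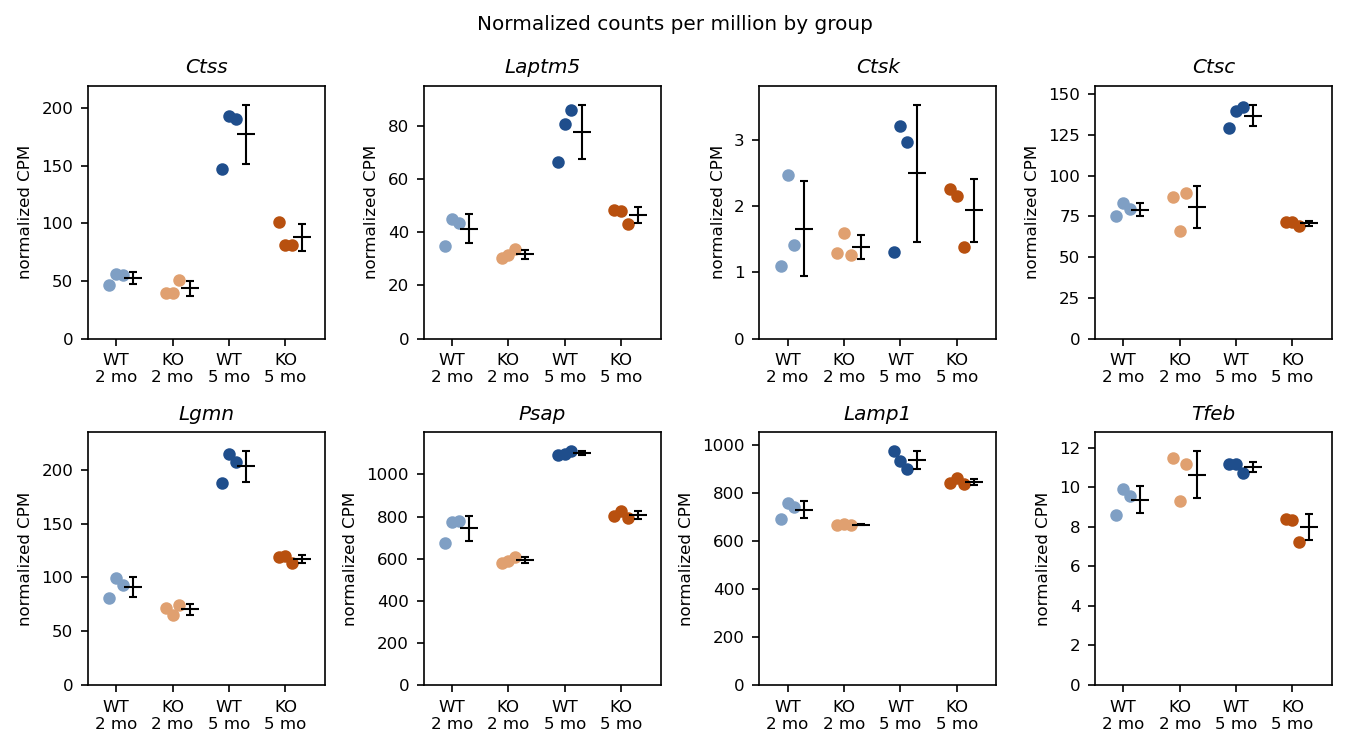
Normalized CPM of 8 members in each library, by genotype and months of FFD, with the group mean and SD (n = 3) as a black bar beside the points. *Ctss*, *Laptm5*, *Ctsc*, *Lgmn* and *Psap* rise from 2 to 5 months in WT and are lower in PPARγ-KO at 5 months, while *Ctsk* is below 4 CPM with overlapping groups.

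Macrophage markers differed between the same libraries. Counts of markers called by edgeR are to be read against the shares of all genes. These were 9.51% lower and 8.90% higher at 5 months, and 1.78% in each direction at 2 months. Summed over 11 Kupffer cell markers, the level was 1503 to 1713 CPM in WT and 759 to 943 CPM in PPARγ-KO at 5 months, and 10 of the 11 were called lower. Summed over 14 markers of monocyte-derived and lipid-associated macrophages, it was 978 to 1383 CPM in WT and 732 to 812 CPM in PPARγ-KO, and 9 of the 14 were called lower. At 2 months the Kupffer sums were 518 to 680 CPM in WT and 568 to 659 CPM in PPARγ-KO, where they overlapped, with 1 marker called higher, *Timd4*. The other macrophage list had 398 to 567 CPM in WT and 347 to 382 CPM in PPARγ-KO at 2 months, with 4 of 14 called lower. Without WT replicate 1 of 2 months 2 Kupffer markers were called higher and 6 of the other 14 lower, against 5.31% and 5.25% of all genes. None of the 25 markers was at 0. Without WT replicate 1 of 5 months 9 Kupffer markers and 12 of the other 14 were called lower at that time, against 10.9% of all genes. Stellate cell markers summed to 709 to 893 CPM in WT and 548 to 623 CPM in PPARγ-KO, 6 of 10 of them called lower, and at 2 months to 632 to 824 CPM in WT and 470 to 495 CPM in PPARγ-KO. Hepatocyte markers summed to 58874 to 64612 CPM in WT and 79079 to 90404 CPM in PPARγ-KO, 2 of 10 called higher. Their log2 fold changes lay above 0 in 6 and below 0 in 4, with a median of 0.11. Of the markers tested, 4 of 9 for endothelial cells, 2 of 4 for neutrophils and 0 of 6 for T and NK cells were called lower by edgeR at 5 months, where DESeq2 called 2 of the last 6. B cell markers had 2 of 4 lower and 1 higher, erythroid markers 1 of 5 higher and cholangiocyte markers 1 of 5 higher.

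**Figure D4:**
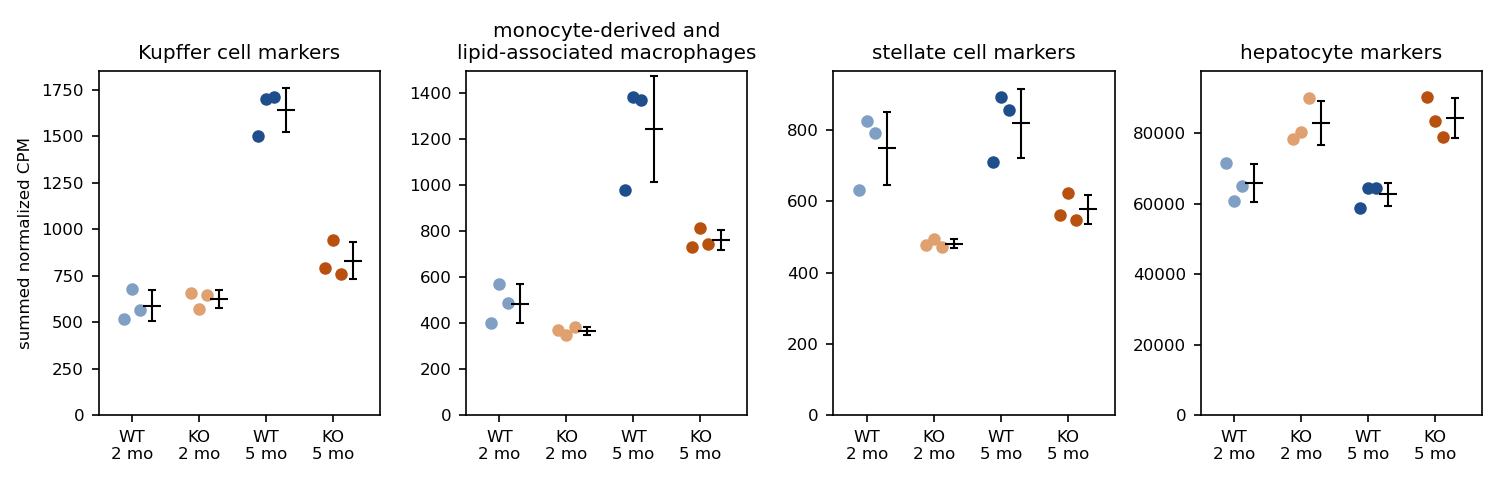
Summed normalized CPM of 4 marker lists in each library, with the group mean and SD (n = 3) as a black bar. The sums of both macrophage lists are lower in PPARγ-KO than in WT at 5 months, and the hepatocyte sum is higher in PPARγ-KO at both times.

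Members were then set against these markers, as the level of a member in percent of the sum of both macrophage lists in the same library. For *Ctss* this was 5.93%, 6.25% and 6.18% in WT and 6.65%, 4.62% and 5.41% in PPARγ-KO at 5 months. For *Ctsc* it was 5.22%, 4.52% and 4.61% against 4.71%, 4.08% and 4.59%, and for *Lgmn* 7.55%, 6.95% and 6.74% against 7.85%, 6.82% and 7.54%. For *Laptm5* it was 2.67%, 2.61% and 2.79% against 3.17%, 2.73% and 2.85%. The genotypes overlapped on this scale for *Ctss*, *Ctsc*, *Lgmn*, *Laptm5* and *Ctsk*. For the other 25 members every PPARγ-KO library lay above every WT library, *Psap* for example at 44.1%, 35.6% and 36.0% in WT and 52.7%, 47.1% and 52.7% in PPARγ-KO, as a member that falls less than the markers must. At 2 months *Lgmn* and *Laptm5* lay wholly below WT on this scale, *Gla* and *Tfeb* wholly above, and the other 26 overlapped. In WT *Ctss* lay wholly higher on this scale at 5 than at 2 months and the other 29 members wholly lower, and in PPARγ-KO 20 lay wholly lower and 10 overlapped. The sum that divides them was itself 916 to 1248 CPM in WT at 2 months and 2481 to 3087 CPM at 5 months. In PPARγ-KO it was 915 to 1029 CPM and 1502 to 1755 CPM. The share of all genes that moved alike on this scale was not counted, so these counts are not a result about the members. The part of the markers in the lower level of the members was not tested.

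From 2 to 5 months of FFD most members rose in WT liver. Of the 30, 19 were called higher and 2 lower, where 23.8% of the 14491 genes tested were called higher and 22.7% lower. The values of 21 members lay wholly above those of 2 months and those of 2 wholly below, against 28.7% and 28.0% of all genes. The median log2 fold change of the members was 0.51, against -0.01 for all genes. Duration of the diet, age of the mice and any difference in how the libraries of the 2 times were made cannot be told apart. Of the Kupffer markers 10 of 11, of the other macrophage markers 10 of 14 and of the T and NK cell markers 4 of 6 were called higher over the same time, and their part in the rise was not tested. *Ctss* rose the most, from the 46.5 to 55.6 CPM given above to 147 to 193 CPM, 3.38 times the mean (1.76 ± 0.12 on the log2 scale, adjusted p = 4.31e-06). *Lgmn* rose by 1.16 ± 0.09 (adjusted p = 8.04e-06) and *Laptm5* by 0.92 ± 0.12 (adjusted p = 2.44e-04), neither with overlap between the times.

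Among the proteases of WT liver, *Ctsz*, a carboxypeptidase, rose from 159, 185 and 161 CPM to 293, 330 and 316 CPM (0.90 ± 0.09, adjusted p = 2.70e-05). *Ctsh*, an aminopeptidase, rose by 0.81, *Ctsc* by 0.79, *Ctsb* and *Ctsd* by 0.73 each, and *Ctsl* by 0.67. *Ctsa*, the protective protein of the galactosidase and sialidase complex, *Tpp1*, a tripeptidyl peptidase, and *Ctsk* did not pass (0.22, 0.09 and 0.59). Of the glycosidases, the α-galactosidase gene *Gla* rose to 1.93 times its mean, from 5.67, 6.64 and 5.38 CPM to 11.7, 10.7 and 11.8 CPM (0.95 ± 0.14, adjusted p = 3.51e-04). The β-hexosaminidase subunit gene *Hexa* rose by 0.81, the sialidase gene *Neu1* by 0.37 and the β-glucuronidase gene *Gusb* by 0.30. *Glb1* and *Man2b1*, for β-galactosidase and lysosomal α-mannosidase, did not pass (0.01 and -0.13).

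Of the membrane proteins of WT liver, *Laptm4a* rose by 0.63, *Lamp2* by 0.45 and *Lamp1* by 0.36, and of the lipid-handling proteins *Asah1* rose by 0.71, *Psap* by 0.57 and *Ppt1* by 0.38. *Scarb2* and *Smpd1* did not pass (-0.11 and 0.19), nor did *Grn* and *Tfeb* (0.12 and 0.23). The 2 lower members were *Mcoln1* (-0.28 ± 0.08, adjusted p = 0.0193) and the acid α-glucosidase gene *Gaa* (-0.24 ± 0.07, adjusted p = 0.0168). Both fell short without WT replicate 2 or 3 of 5 months, and *Mcoln1* also without replicate 1 of either time. The call of *Gusb* was lost without WT replicate 1 of 2 months or any 1 of the 5-month WT libraries (adjusted p up to 0.0826). Leaving out WT replicate 1 of 2 months otherwise kept the count of higher members at 19, with *Smpd1* in the place of *Gusb*, and without WT replicate 1 of 5 months it was 19 too, with *Ctsa* in the place of *Gusb*.

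In PPARγ-KO liver the rise over time took in 19 members too, with 4 lower, where 22.7% of the 14478 genes tested were called higher and 22.2% lower. The values of 20 members lay wholly above and those of 4 wholly below, against 28.2% and 27.5% of all genes. The median of the members was 0.40, against -0.01 for all genes. Of the other macrophage markers 12 of 14 were called higher, and of the Kupffer markers 4 higher and 2 lower, and their part in the rise was not tested. *Ctss* rose from 39.7, 39.8 and 51.1 CPM to 101, 81.1 and 81.2 CPM, 2.02 times the mean (1.01 ± 0.13, adjusted p = 3.81e-04), and *Laptm5* by 0.54 ± 0.08 (adjusted p = 1.74e-04). *Ctsz* rose by 0.90, *Hexa* by 0.81, *Lgmn* by 0.74, *Ctsl* by 0.69 and *Gla* by 0.61. *Gusb* rose by 0.50, *Ctsb* and *Ctsd* by 0.48 each, *Asah1* by 0.47, *Ctsh* by 0.46, *Laptm4a* and *Psap* by 0.44 each, *Lamp2* by 0.36, *Lamp1* by 0.34, *Neu1* and *Smpd1* by 0.32 each and *Ctsa* by 0.28.

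*Ctsc* did not rise in PPARγ-KO liver: it was at 86.6, 65.9 and 89.3 CPM at 2 months and 71.6, 71.5 and 68.9 CPM at 5 months, with overlap (-0.19 ± 0.10, adjusted p = 0.158). *Ctsk* also overlapped between the times (0.50 ± 0.28, adjusted p = 0.167). The lower members were *Tfeb* (-0.41 ± 0.13, adjusted p = 0.0215), *Mcoln1* (-0.25 ± 0.09, adjusted p = 0.0376), *Man2b1* (-0.19 ± 0.06, adjusted p = 0.0309) and *Scarb2* (-0.16 ± 0.06, adjusted p = 0.0449). These 4 calls were weak: without PPARγ-KO replicate 3 of 2 months or of 5 months none of the members was called lower, and DESeq2 kept *Tfeb* alone. *Gaa*, *Glb1*, *Grn*, *Ppt1* and *Tpp1* were not called either (-0.12, 0.01, 0.10, 0.22 and 0.00).

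Side by side, 17 members were called higher in both genotypes and 1, *Mcoln1*, lower in both. *Ctsc* and *Ppt1* were called higher in WT alone, and *Ctsa* and *Smpd1* in PPARγ-KO alone. Of these only *Ctsc* passed edgeR's test of the difference given below. The share of all genes called in both genotypes was not counted. In 22 of the 30 members the fitted change over time was larger in WT than in PPARγ-KO, and in 8 it was smaller. Of the 15127 genes tested for the difference between these changes, 7685 lay the same way as the 22. The study's criteria for pathway analysis, an unadjusted p below 0.05 with a 1.3-fold change, were applied to edgeR's values, not to the study's own. By this rule 16 members passed in WT, all of them higher, where 41.1% of all genes passed in either direction. In PPARγ-KO 15 passed, 14 higher and 1 lower, against 36.0% of all genes. The same rule took in 0 members for PPARγ-KO against WT at 2 months (11.0% of all genes) and 7 at 5 months (17.0% of all genes).

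**Figure D5:**
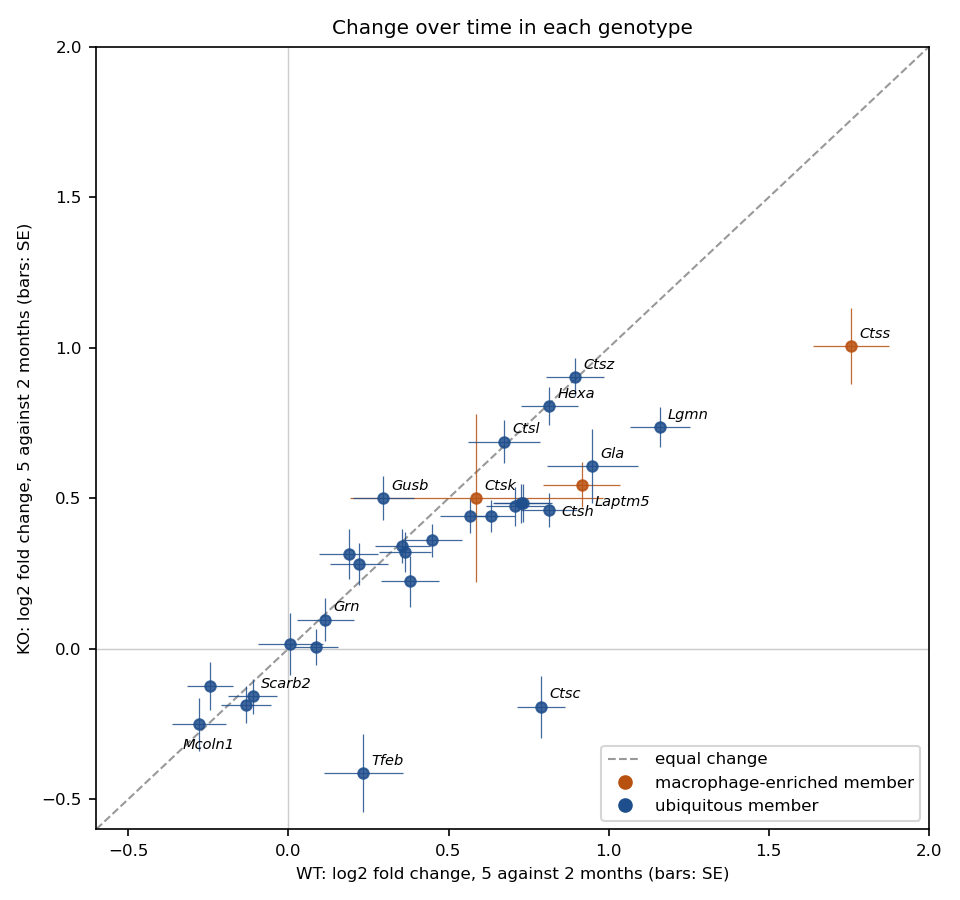
Log2 fold change from 2 to 5 months of each member in WT (horizontal axis) and in PPARγ-KO (vertical axis), with standard errors as bars and a dashed line where both are equal. Most members lie between 0 and 1 near the line, *Ctss*, *Lgmn* and *Ctsc* lie below it at the right, and *Tfeb* is above 0 in WT and below 0 in PPARγ-KO.

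Whether the difference between the genotypes itself changed with time was tested in all 12 libraries. For 1 of the 30 members, *Ctsc*, the PPARγ-KO/WT fold change at 5 months was lower than at 2 months, and for 0 it was higher, where 0.912% of the 15127 genes tested were called lower and 0.661% higher. For *Ctsc* the log2 fold change fell by 0.98 ± 0.13 between the times (adjusted p = 0.00270), and this call was kept with any 1 library left out, under DESeq2 and with the replicate block (adjusted p at most 0.0136). *Tfeb* (-0.65 ± 0.17, adjusted p = 0.0737), *Ctss* (-0.75 ± 0.19, adjusted p = 0.0787), *Lgmn* (-0.42 ± 0.12, adjusted p = 0.0832) and *Ctsh* (-0.35 ± 0.10, adjusted p = 0.0961) did not pass in edgeR's main fit and did with DESeq2, which called 5 members lower and 2.16% of all genes. At an unadjusted p below 0.05 there were 9 lower members and 0 higher, against 7.87% and 7.00% of all genes. *Laptm5* and *Ctsk* gave -0.37 ± 0.15 and -0.08 ± 0.51 (adjusted p = 0.248 and 0.963), and the sign of *Ctsk* changed when single libraries were left out. Without WT replicate 1 of 2 months *Ctsh* was called as well as *Ctsc*, and without WT replicate 1 or PPARγ-KO replicate 1 of 5 months *Ctss* was. With no filter edgeR called *Ctsh*, *Ctss* and *Lgmn* lower as well as *Ctsc*, where 1.52% of all genes were called lower. Of the Kupffer markers, 8 of 11 were called lower in the main fit of the difference, and of the other macrophage markers 2 of 14. By the unadjusted 1.3-fold rule 4 members passed, against 10.3% of all genes.

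Other lysosomal genes were counted from lists of the same pathway, to be read against the shares of all genes given above: 1.78% higher and 1.78% lower at 2 months, 8.90% and 9.51% at 5 months, 23.8% and 22.7% over time in WT, and 22.7% and 22.2% over time in PPARγ-KO. Of 19 subunits of the proton pump that were tested, 0 were called in either direction at 2 months and 2 were lower at 5 months, *Atp6v1b2* (-0.35) and *Atp6v0e* (-0.26). Over time 14 of the 19 rose and 2 fell in each genotype, with *Atp6v0e* at 1.10 in WT and 0.87 in PPARγ-KO. Of 35 further hydrolases and their activators, 3 were lower and 1 higher at 2 months, and 8 lower and 1 higher at 5 months. The arylsulfatase A gene *Arsa* was lower at both times (-0.68 and -0.48), as was the cathepsin E gene *Ctse* (-2.88 and -1.34), while *Gm2a*, the ganglioside activator, was higher at 2 months (0.42) and the cholesterol carrier gene *Npc2* lower at 5 months (-0.32). Over time 15 of the 35 rose and 4 fell in each genotype.

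Of 24 further lysosomal membrane proteins, 1 was lower at 2 months, *Laptm4b* (-0.41), and 3 were lower and 3 higher at 5 months. *Slc11a1*, the metal transporter of phagosomes, was lower at 5 months (-0.94), and *Npc1* (0.29) and *Tmem106b* (0.32) were higher. Over time 5 rose and 6 fell in WT, and 6 rose and 8 fell in PPARγ-KO. Of 12 genes that sort enzymes to lysosomes, 0 were called at 2 months and 1 was lower at 5 months, the sorting receptor gene *Sort1* (-0.83). Of 3 inhibitors of cathepsins that were tested, 0 were called at 2 months and 2 were lower at 5 months, *Cst3* (-0.38) and *Serpina3g* (-1.23). Over time all 3 rose in WT and 2 of the 3 in PPARγ-KO, with *Cstb* at 1.21 and 1.49.

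Of the TFEB-control list, 17 genes for relatives of TFEB and for proteins that control these factors, 0 were called at 2 months. At 5 months 3 were higher, *Fnip2* (0.64), *Fnip1* (0.30) and *Rptor* (0.26), and 1 was lower. At 2 months DESeq2 too called 0 genes of the pump, sorting, inhibitor and TFEB-control lists, which held 1, 1, 2 and 2 genes at an unadjusted p below 0.05 by edgeR. Without WT replicate 1 of 2 months 1 inhibitor and 1 gene of the TFEB-control list were called lower, further hydrolases had 6 lower and 1 higher, further membrane proteins 2 lower and 1 higher, and autophagy genes 3 higher and 1 lower, where 5.25% of all genes were lower and 5.31% higher. Without WT replicate 1 of 5 months 6 pump subunits, 9 further hydrolases, 5 further membrane proteins, 2 sorting genes, 3 inhibitors and 0 TFEB-control genes were called lower at that time. Of all genes 10.9% were called lower without that library. DESeq2 called 2 further membrane proteins lower at 2 months. Over time 6 of the 17 rose in each genotype, while 5 fell in WT and 4 in PPARγ-KO. Of 24 autophagy genes, 2 were higher at 2 months, *Ulk2* (0.33) and *Ulk1* (0.41), and 1 was lower, *Map1lc3a* (-0.61). At 5 months 3 were higher, among them *Ulk1* (0.61) and *Atg3* (0.27), and 2 were lower, among them *Map1lc3a* (-0.51). Over time 8 of the 24 rose and 4 fell in WT, and 7 rose and 5 fell in PPARγ-KO.

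Several members share bases with a neighbouring gene, and whether reads were counted by strand is not given in the sources used here. *Ppt1* shares 129 bases with *Cap1* on the other strand, which had 23144 counts over all libraries against 8988 of *Ppt1*. *Ctsa* shares 1515 bases with *Pltp* (14398 against 35671 counts), and *Ctsb* 774 bases with *Fdft1* (15041 against 199800 counts). *Lamp1* shares 3317 bases with *Grtp1* (3932 against 182575 counts). *Glb1* holds *Tmppe* on the same strand along 6172 bases (954 against 3601 counts). Values of these 5 members may hold reads of the neighbour or lack reads shared with it.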

How the data were processed

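Liver RNA was sequenced in 12 libraries by Novogene on an Illumina NovaSeq, and the authors deposited, for each library, the unnormalized read count of each gene on mm10. The methods name STAR as the aligner, while the submitters' processing notes name HISAT2. The counting program, gene annotation and use of strand are not given in the sources used here. Libraries held 16367775 to 27452284 counts over 54532 genes.

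Groups followed the labels. Genes were filtered with filterByExpr, libraries scaled by TMM, and each comparison fitted on its own 6 libraries (the difference on all 12) with edgeR 4.0.16 (R 4.3.3, limma 3.58.1), robust quasi-likelihood F-test, two-sided, with Benjamini-Hochberg adjustment across every gene tested, threshold 0.05. Normalized CPM used 1 TMM scale for all 12 libraries. The code was tested on simulated data. Same-numbered libraries correlated, after removal of group means over the 5000 most abundant genes, at 0.218, 0.323 and 0.140 at 2 months. At 5 months the values were -0.0806, -0.0586 and -0.172. Differently numbered libraries of the 2 genotypes ran from -0.273 to 0.113 at 2 months. Between the times, some differently numbered libraries of 1 genotype correlated at like size. WT replicate 3 of 5 months and replicate 2 of 2 months were at 0.266. The 2-month values were taken as pairing, though no label states pairs. The main fits used group alone, so the block is given beside them.

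The members and all lists were chosen with earlier results of these data known. Every called member is named, with *Ctss*, *Ctsk*, *Laptm5* and *Tfeb* always, and at most the 3 genes of smallest p per other list. Alternatives were DESeq2 1.42.0, its size factors, library size alone, no filter, a minimum of 10 counts in each library, the replicate block, a fit of all 12 libraries and each library left out. The study's criteria for pathway analysis (unadjusted p below 0.05 with a 1.3-fold change) were applied to edgeR's values as a further alternative. The set of macrophage ratios was chosen after seeing the data.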

Additional observations from a re-analysis of the deposited data

Results flagged for a closer look

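Effects that differed between the times or the genotypes were looked for in each member. For *Ctsc* the difference was tested and passed: the log2 fold change PPARγ-KO/WT was 0.03 at 2 months, where its sign changed with single libraries left out, and -0.94 at 5 months, a difference of -0.98 (adjusted p = 0.00270 by edgeR). The other 3 were picked out because the libraries of both groups did not overlap at either end and lay in opposite directions, and for none of them did edgeR's main test of the difference pass (DESeq2 called *Ctsh* and *Tfeb*, and edgeR *Ctsh* without WT replicate 1 of 2 months or with no filter). *Ctsh* was above WT in all PPARγ-KO libraries at 2 months and below it at 5 months, with a difference of -0.35 (adjusted p = 0.0961), and *Laptm4a* did the same with -0.19 (adjusted p = 0.313). *Tfeb* was higher at 5 than at 2 months in all WT libraries and lower in all PPARγ-KO libraries, a difference of -0.65 (adjusted p = 0.0737). Groups of 3 libraries were too small for a test of outlying samples.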

How the results depend on the processing

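The alternatives gave 1832 values for 128 pairs of a member and a comparison, all pairs but those of the difference between the times that are not printed. Of these 1673 kept their direction and their side of the threshold, 68 fell short of it, 54 passed it and 37 changed sign. Each sign change was in a pair that edgeR did not call. With a library left out, the log2 fold changes at 2 months ran from -0.49 to 0.13 for *Ctsk*, from -0.052 to 0.15 for *Ctsc*, from -0.094 to 0.047 for *Mcoln1*, from -0.083 to 0.047 for *Gaa*, from -0.13 to 0.0077 for *Smpd1* and from -0.078 to 0.00015 for *Tpp1*. At 5 months they ran from -0.057 to 0.086 for *Mcoln1* and from -0.012 to 0.048 for *Gusb*. Over time *Glb1* ran from -0.048 to 0.058 in WT and from -0.048 to 0.10 in PPARγ-KO, and *Tpp1* from -0.035 to 0.045 in PPARγ-KO. In the difference between the times *Ctsk* ran from -0.49 to 0.15. With library size alone *Ctsc* was at -0.055 at 2 months, *Mcoln1*, *Gusb* and *Neu1* at -0.056, -0.047 and -0.0056 at 5 months, *Glb1* at -0.075 in WT and -0.044 in PPARγ-KO over time, and *Tpp1* at -0.053 in PPARγ-KO over time. With a minimum of 10 counts *Glb1* was at -0.014 in WT and *Tpp1* at -0.0061 in PPARγ-KO over time, and with no filter *Tpp1* was at -0.0010. For PPARγ-KO against WT at 2 months the count of lower members, 0, became 2 with library size alone, 2 with DESeq2, 3 with no filter, 2 with the replicate block and 3 with all 12 libraries in one fit, and with a library left out it ran from 0 to 6 (higher members from 0 to 2). At 5 months the 11 lower members became 18 with library size alone, 7 by the study's criteria and 7 to 14 with a library left out, and DESeq2 called 1 higher. In WT over time the 2 lower members became 0 by the study's criteria and 0 to 2 with a library left out. In PPARγ-KO over time the 4 lower members became 1 with DESeq2, 2 with the replicate block, 1 by the study's criteria and 0 to 3 with a library left out. For the difference between the times the 1 lower member became 5 with DESeq2, 4 with no filter, 4 by the study's criteria and 1 to 2 with a library left out. The cause was not tested. The replicate block left 10 lower members at 5 months, without *Ppt1* (adjusted p = 0.0641), and changed no other count by over 1.5 times; outside 2 months the numbers were not taken as pairs. Library size alone moved the median of all genes by less than 0.1 on the log2 scale in each comparison. With 3 libraries a group, standard errors of most members were 0.06 to 0.15, and for *Ctsk*, at 1.09 to 3.21 CPM, 0.28 to 0.51.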
